A study of Mus musculus with 20 samples.

Results

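Col11a1 and 7 other collagen genes of the vitreous and of the basement membranes of the eye, Col2a1, Col9a1, Col9a2, Col9a3, Col4a1, Col4a2 and Col18a1, were followed in cultured mouse retina across cell types, ages and MEIS constructs. They are 8 of the 23260 genes of the deposited table of UMI counts, in which a UMI stands for 1 captured RNA molecule, and all 8 were found there by symbol. Col11a1 was chosen by its level in progenitors at P5, which was lower with MEIS constructs than with the control construct, and the others because they encode collagens of the same structures. The values of that contrast are therefore given as a description with no test. All 8 genes were chosen with earlier results of these data known.

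The series asks what MEIS factors, transcription factors of the homeodomain family, do to late retinal progenitors and to the making of neurons. Retinal explants of wild-type CD1 mice had received by electroporation either a control construct with GFP alone, or MEIS1, or MEIS2, or an equal mix of both (here called the combination), and GFP-positive cells were sorted and profiled with 10x Genomics 3′ chemistry. The vector named in the design text, pCAGIG, drives the insert from a broadly active promoter together with GFP, so that every group, controls included, carries GFP. The labels give postnatal day 2 (P2) or 5 (P5) as the age, and each age has 4 control libraries and 2 libraries of each of the 3 construct groups, 20 libraries and 79009 cells in all. Nothing in the labels says whether libraries of a group came from separate animals or explants, so p-values measure only the spread between these libraries.

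The fibrils of the vitreous are built from several collagens. Type II collagen, from Col2a1, makes up the body of the fibril, type XI collagen, of which Col11a1 encodes a chain, is buried in it and limits its thickness, and type IX collagen, a trimer of the Col9a1, Col9a2 and Col9a3 chains, decorates its surface. Type IV collagen, from Col4a1 and Col4a2, forms the network of basement membranes, such as the inner limiting membrane and the sheath of vessels, and type XVIII collagen, from Col18a1, is a basement membrane proteoglycan whose end fragment is endostatin. In humans, variants in the genes of types II, XI and IX collagen cause Stickler syndromes, with a malformed vitreous and a risk of retinal detachment.

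In mm10, with GENCODE vM21 models, Col11a1 lies at chr3:114030540-114220718 on the plus strand, Col9a1 at chr1:24177610-24252684 on the plus strand and Col2a1 at chr15:97975602-98004695 on the minus strand. Col9a2 lies at chr4:121039385-121055322 and Col9a3 at chr2:180597790-180622189, both on the plus strand, and Col18a1 at chr10:77052178-77166548 on the minus strand. Col4a1 (chr8:11198423-11312826, minus strand) and Col4a2 (chr8:11312805-11449287, plus strand) are divergent neighbours whose models overlap by 22 bases at their starts. The 3′ counts are sums over whole genes, and the levels of different genes are not ranked against each other, since their lengths and 3′ ends differ.

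The 250 bases before the start of Col11a1 are shown, because its level differed most with the constructs among the 8 genes at P5, and those before the upstream start of Col9a1, because its level differed most with age. Both are RefSeq windows of GRCm38.p6 on the plus strand, chr3:114030290-114030539 and chr1:24177360-24177609, written 5′ to 3′, with the GC box GGGCGG in capitals.
Col11a1: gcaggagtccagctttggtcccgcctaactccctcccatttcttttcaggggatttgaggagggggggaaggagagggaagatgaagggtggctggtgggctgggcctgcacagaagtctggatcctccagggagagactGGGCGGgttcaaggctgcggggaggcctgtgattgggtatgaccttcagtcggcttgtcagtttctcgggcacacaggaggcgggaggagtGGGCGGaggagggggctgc
Col9a1: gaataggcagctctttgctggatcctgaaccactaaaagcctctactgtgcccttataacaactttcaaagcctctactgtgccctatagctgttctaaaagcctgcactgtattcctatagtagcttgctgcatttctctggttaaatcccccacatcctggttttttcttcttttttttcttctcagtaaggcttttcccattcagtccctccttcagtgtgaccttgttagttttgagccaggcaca
The Col11a1 window held 2 GC boxes and the Col9a1 window none. A further Col9a1 window, at chr1:24194953-24195202, overlaps an untranslated region and also held none. The 3′ counts do not tell the starts of Col9a1 apart. Over all 32851 promoter windows of this length, 32.7% held GGGCGG on either strand. The letters TGACAG, the core sequence that MEIS factors are known to bind, were searched on both strands (reverse CTGTCA). They were in no window of Col11a1, Col9a1, Col9a2, Col4a1, Col4a2 or Col18a1, against 15.9% of all windows. These matches describe the letters of the windows and are not measured binding. RefSeq windows were matched for 6 of the 8 genes, all but Col2a1 and Col9a3.

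As a check of the labels, Meis1 in progenitors was 164 to 354 CPM (the gene's UMIs per 1000000 UMIs of that library and cell type) in the P2 controls and 2099 to 2630 with MEIS1. Meis2 was 95.04 to 197 CPM in the P2 controls and 861 to 1830 with MEIS2. At P5, Meis1 was 184 to 207 CPM in controls and 3137 to 3750 with MEIS1, and Meis2 was 34.6 to 50.1 CPM in controls and 848 to 971 with MEIS2. Libraries held 2376875 to 141540352 UMIs, and their progenitors 650348 to 32084420. The least was P2 MEIS2 replicate 2, with 10 Col11a1 UMIs in progenitors. The prefix of the barcodes matched the title in 10 of the 20 libraries, and in all but 2 of the others it differed in the replicate number alone. It reads in P2 control 1 as a combination, and in P2 combination 2 as a control, while Meis1 and Meis2 were 354 and 197 CPM in the first and 887 and 913 in the second. Over 190 pairs of libraries at most 30 barcodes were shared, and in another pair the share reached 0.876% of the smaller library. The treatment tag gives MEIS1 for both single constructs at P2 and MEIS2 for both at P5, and the design text names NR2F1 and NR2F2 and days of treatment. Titles were followed throughout.

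By share of UMIs, progenitors held the largest part of each vitreous fibril collagen, and Col11a1 had its second largest share in amacrine cells. Shares follow cell numbers. By level, the small class named Müller glia, given below, was near or above progenitors for the type IX chains. Over the 8 control libraries Col11a1 was 38.7 ± 20.5 CPM in progenitors (SD, n = 8), with a range of 18.6 to 68.6. In amacrine cells, inhibitory interneurons of the inner retina, it was 27.5 ± 16 CPM (n = 8, 7.91 to 56.2). The order of these 2 types differed by age. At P2 the control means were 21.5 CPM in progenitors and 25.3 in amacrine cells, and at P5 55.8 and 29.7. The P5 progenitor values are among those that chose the gene. In neurogenic cells, the authors' class of cells leaving the progenitor state, it was 13.3 ± 9.17 CPM (n = 8, 3.51 to 30.4), and in bipolar cells 7.72 ± 7.15 (n = 5). Cones had 2.92 ± 3.76 CPM (n = 6), starburst amacrine cells 6.76 ± 4.93 (n = 2) and rods 0.975 ± 0.403 (n = 8, 0.549 to 1.74). Sorted by mean, every neighbouring pair of types overlapped, while the ranges of rods and of neurogenic cells were apart. Of the 9129 Col11a1 UMIs in all cells, 47.2% were in progenitors, 29.6% in amacrine cells, 14.2% in neurogenic cells and 2.06% in rods, though rods were 38650 of the cells and progenitors 11818. P2 control 1 held 1403 of the 2702 amacrine UMIs, and without that library the amacrine share was 19.3%. Cell types were compared as a description, with no test.

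The other fibril genes had less of their RNA in amacrine cells, at most 4.39% of their UMIs, the share of Col9a2, which was 2.91% without P2 control 1. Col2a1 was 82.7 ± 34.4 CPM in control progenitors and 21.7 ± 15.8 in neurogenic cells, but 1.49 ± 1.01 in amacrine cells and 1.52 ± 0.640 in rods (n = 8 each). Progenitors held 81.3% of its UMIs and amacrine cells 0.959%. Col9a1 was 331 ± 293 CPM in progenitors, 45.8 ± 50.6 in neurogenic cells, 5.90 ± 4.37 in amacrine cells and 2.23 ± 1.06 in rods, with 84.7% of its UMIs in progenitors. Col9a2 was 23.3 ± 13.1 CPM in progenitors and 8.48 ± 5.09 in neurogenic cells. Col9a3 was 89.5 ± 32.2 and 70.0 ± 22.1 CPM in the same classes, so that 30.0% of its UMIs fell in neurogenic cells against 9.57% of those of Col9a1, although both chains belong to the same trimer. Amacrine cells had 2.68 ± 2.07 CPM of Col9a2 and 7.65 ± 5.12 of Col9a3.

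Among the basement membrane genes, Col4a1 and Col4a2 had 11.0% and 16.05% of their UMIs in amacrine cells and Col18a1 3.42%. Col4a1 was 107 ± 42.7 CPM in control progenitors, 54.0 ± 34.3 in neurogenic cells, 21.4 ± 6.89 in amacrine cells and 22.0 ± 5.77 in bipolar cells (n = 5), against 4.07 ± 1.05 in rods. Col4a2 followed it with 44.8 ± 15.3, 28.9 ± 18.4, 18.5 ± 3.34, 19.99 ± 5.28 and 2.34 ± 0.749 CPM in the same order. The UMIs of this divergent pair kept a ratio of 1.59 to 2.87 (Col4a1 to Col4a2, median 2.28) in progenitors of the 20 libraries, which describes its spread over libraries and not a difference in level between the genes. Col18a1 was 25.8 ± 15.9 CPM in progenitors, 8.20 ± 8.12 in neurogenic cells, 3.38 ± 2.46 in bipolar cells and 1.502 ± 1.08 in amacrine cells.

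The class the authors named Müller glia, the supporting glia that late progenitors give rise to, was small, with 221 cells. Its 2 control libraries of at least 20 cells had 190 and 470 CPM of Col9a1, 150 and 259 of Col4a1, 93.4 and 110 of Col4a2, 61.7 and 82.4 of Col18a1 and 23.3 and 13.3 of Col11a1, P2 first. The same libraries carried 225 and 582 CPM of 4 astrocyte markers and 125 and 290 CPM of 5 fibroblast markers, against at most 27.9 and 14.1 in control progenitors, and the P2 library had 1468 CPM of the 6 Müller markers where P2 control progenitors averaged 2048. GFP counts toward the UMI total and was 265098 CPM in that P2 library and 15594 in the P5 library. In P2 control progenitors its mean was 25624 CPM. The CPM of every other gene in the P2 library are lowered by it, markers and collagens alike. The part of GFP, or of cells with astrocyte or fibroblast markers, in the collagen levels was not tested. In the 55 horizontal cells no UMI of Col2a1, Col9a2 or Col18a1 was seen among 422159 UMIs, where 3 counts would be 7.11 CPM and the exact 95% upper limit is 8.74 CPM, for counting error only.

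**Figure D1:**
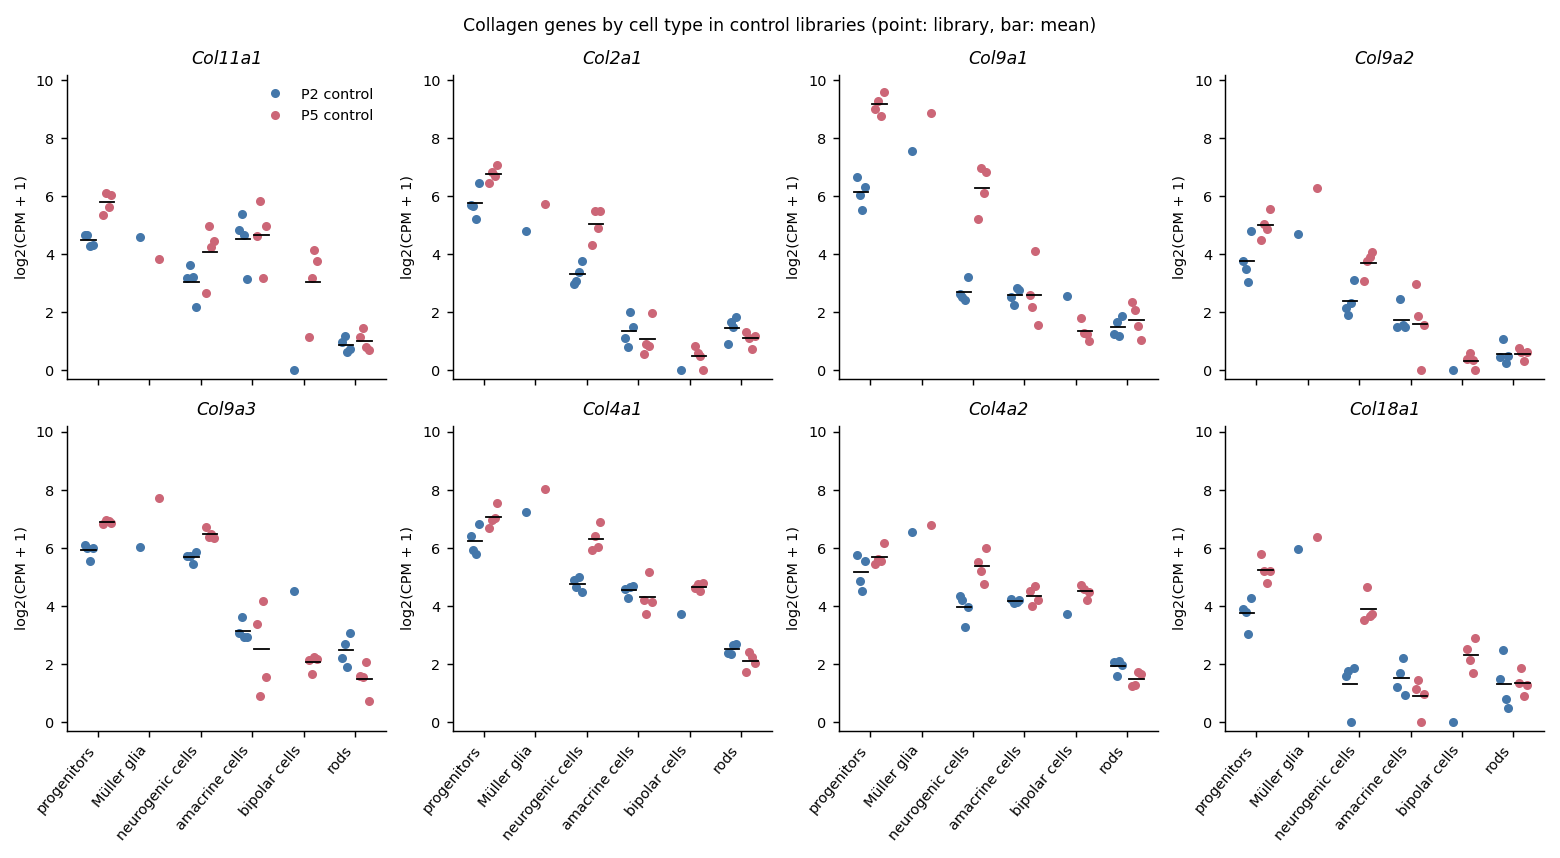
Levels of the 8 collagen genes in control libraries, as log2(CPM + 1), by cell type and age (blue P2, red P5). Points are libraries in which that type had 20 cells or more, and bars are means of the log values. Progenitors lie high in every panel, Müller glia lie near or above them for most genes, and Col11a1 is also high in amacrine cells. The P5 points of progenitors and neurogenic cells lie above the P2 points for most genes.

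Within the progenitors, the authors' cluster 3 was the largest (8376 cells), followed by clusters 12 (2325 cells) and 16 (1117 cells). Levels in them are given for Col11a1, Col9a1, Col9a2 and Col2a1. Mki67, a marker of dividing cells, was 4 CPM in cluster 3, 357 in cluster 12 and 427 in cluster 16. Rlbp1, a gene of Müller glia and late progenitors, was 966, 171 and 114 CPM, and Apoe, another of the Müller glia markers, 5029, 997 and 579. In P2 controls Col11a1 was 25.5 ± 4.01 CPM in cluster 3, 14.5 ± 7.44 in cluster 12 and 13.0 ± 5.56 in cluster 16 (n = 4 each). Col9a1 was 89.3 ± 24.5, 48.3 ± 15.2 and 24.5 ± 16.1 CPM, and Col9a2 17.4 ± 7.8, 7.2 ± 1.9 and 3.0 ± 3.1. Col2a1 went the other way, at 53.5 ± 22.4, 59.6 ± 28.6 and 64.1 ± 6.8 CPM, differences within the spread of the libraries. The clusters were drawn from these same cells, so that these values describe them and test nothing. The share of cluster 3 among progenitors was 68.4 ± 18.7% in P2 controls and 90.2 ± 10.8% in P5 controls.

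From P2 to P5 most of these collagens rose in controls in the class the authors named progenitors, Col9a1 by the largest fold of the 8. That class also had more Müller glia marker RNA at P5, as given below. A change in the cells of the class and a change of collagen RNA per cell cannot be told apart in these sums. In progenitors Col9a1 was 99.9, 65.2, 45.6 and 78.2 CPM in the P2 controls and 519, 621, 440 and 780 in the P5 controls. Every P5 library lay several times above every P2 library, a log2 fold change of 3.05 (SE 0.30, adjusted p = 9.56e-06, edgeR quasi-likelihood test adjusted over 14849 genes). Col9a3 was 68.2, 63.4, 46.4 and 62.6 CPM at P2 and 114, 124, 122 and 116 at P5, a log2 fold change of 0.99 (SE 0.16, adjusted p = 0.000614), again with no overlap. Col9a2 was 12.7, 10.4, 7.34 and 26.9 CPM at P2 and 21.5, 31.8, 28.5 and 46.8 at P5. 1 P2 control lay inside the P5 range, and its log2 fold change was 1.14 (SE 0.35, adjusted p = 0.0311).

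Col2a1, the main fibril chain, was 51.1, 50.4, 36.2 and 86.6 CPM in P2 control progenitors and 87.2, 112, 103 and 135 at P5, with a log2 fold change of 0.96 (SE 0.23, adjusted p = 0.00903). The groups did not overlap, but the highest P2 control and the lowest P5 control differed by less than 1 CPM. Col18a1 was 14.0, 12.8, 7.21 and 18.5 CPM at P2 and 54.9, 36.0, 26.5 and 36.2 at P5, a log2 fold change of 1.57 (SE 0.28, adjusted p = 0.0012) with no overlap. Col4a1 rose by 0.80 on the log2 scale (SE 0.23, adjusted p = 0.0261), from 77.7 ± 26.7 CPM to 136 ± 35.9 (n = 4 each), with overlap. Its partner Col4a2 went from 37.4 ± 14.9 to 52.1 ± 13.3 CPM, a log2 fold change of 0.48 (SE 0.24) that did not pass (adjusted p = 0.164).

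Thus 6 of the 7 genes tested rose, where 10.6% of the 14849 genes tested were called higher and 17.5% were called in either direction. All 4 P5 controls lay above all P2 controls for 11% of genes. The collagens were chosen with earlier results of these data known, so these shares stand beside the calls as a description. For Col11a1, whose P5 controls also chose it, no test is given: it was 24.3, 24.2, 18.6 and 18.9 CPM in P2 control progenitors and 40.4, 68.6, 48.8 and 65.5 in the P5 controls, with no overlap, a log2 fold change of 1.38 (SE 0.21). The median log2 fold change over the 7 genes other than Col11a1 was 0.99, against -0.04 over all genes tested. The call of Col9a2 was lost on leaving out P2 control 1, 2 or 3 or P5 control 2 or 4 (adjusted p 0.0686 to 0.102) and with only the groups compared in the fit (0.0583), and that of Col4a1 on leaving out P2 control 2 or 3 or P5 control 2 or 4 (0.0517 to 0.0931).

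At equal depth the shares of cells with a UMI differed in the same direction. After thinning each cell to 2000 UMIs, Col9a1 was seen in 11.8 ± 3.66% of P2 control progenitors and 64.5 ± 9.84% of P5 control progenitors (n = 4 libraries each), and unthinned in 31.3 ± 11.7% and 93.8 ± 7.03%, at median depths of 8318 and 15995 UMIs. In rods, at medians of 3800 and 3836.5 UMIs, the thinned shares were 0.32 ± 0.24% and 0.50 ± 0.36%. Thinned Col18a1 was seen in 2.40 ± 1.10% and 5.98 ± 0.89% of progenitors of P2 and P5 controls. Col11a1, whose P5 control values chose it, was seen in 3.80 ± 0.59% and 9.28 ± 2.43%, which is given as a description. Thinning left out 158 and 6 progenitors and 2823 and 2079 rods that were shallower.

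Other genes moved with age in the same cells. The summed level of the 6 Müller glia markers in control progenitors was 1100 to 3208 CPM at P2 and 8940 to 16527 at P5, and that of the 7 endothelial markers 278 to 516 and 634 to 884. Most of the endothelial UMIs were those of Kdr, a receptor also known in retinal progenitors, with 103006 in all cells, followed by Cldn5 with 5666, Flt1 with 5001, Pecam1 with 1001, Tek with 465, Emcn with 197 and Cdh5 with 25. The 5 pericyte markers ran from 2 UMIs for Kcnj8 to 1712 for Notch3, the 5 fibroblast markers from 3 for Dcn to 1230 for Pdgfra, and the 6 of pigment epithelium from 11 for Rpe65 to 6779 for Mitf, so that none of these measured markers was at 0. Without the 1586 progenitors that had at least 2 UMIs of endothelial and pericyte markers other than Kdr, an alternative chosen after the data were seen, the 6 calls held, with Col9a1 2.91 higher (adjusted p = 2.21e-05), Col18a1 1.37 (adjusted p = 0.00222) and Col4a1 0.85 (adjusted p = 0.049) on the log2 scale. The part of the glial markers in the collagen levels was not tested, and that of depth was looked at only in the shares of thinned cells. Within cluster 3 alone, chosen after the data were seen, Col9a1 was 2.82 higher on the log2 scale (adjusted p = 2.3e-06), and the same 6 genes were called. Leaving out cells with at least 2 UMIs of markers of other cell types kept 20 or more progenitors in only 1 of the P5 controls, so that age could not be tested in them. In that library, P5 control 3, the 68 cells left held 9 Col11a1 UMIs, 17.6 CPM against 48.8 in all 982 of its progenitors, and had 7525 UMIs per cell against 11739. In the P2 controls Col11a1 was then 11.8, 23.7, 16.03 and 14.3 CPM.

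**Figure D2:**
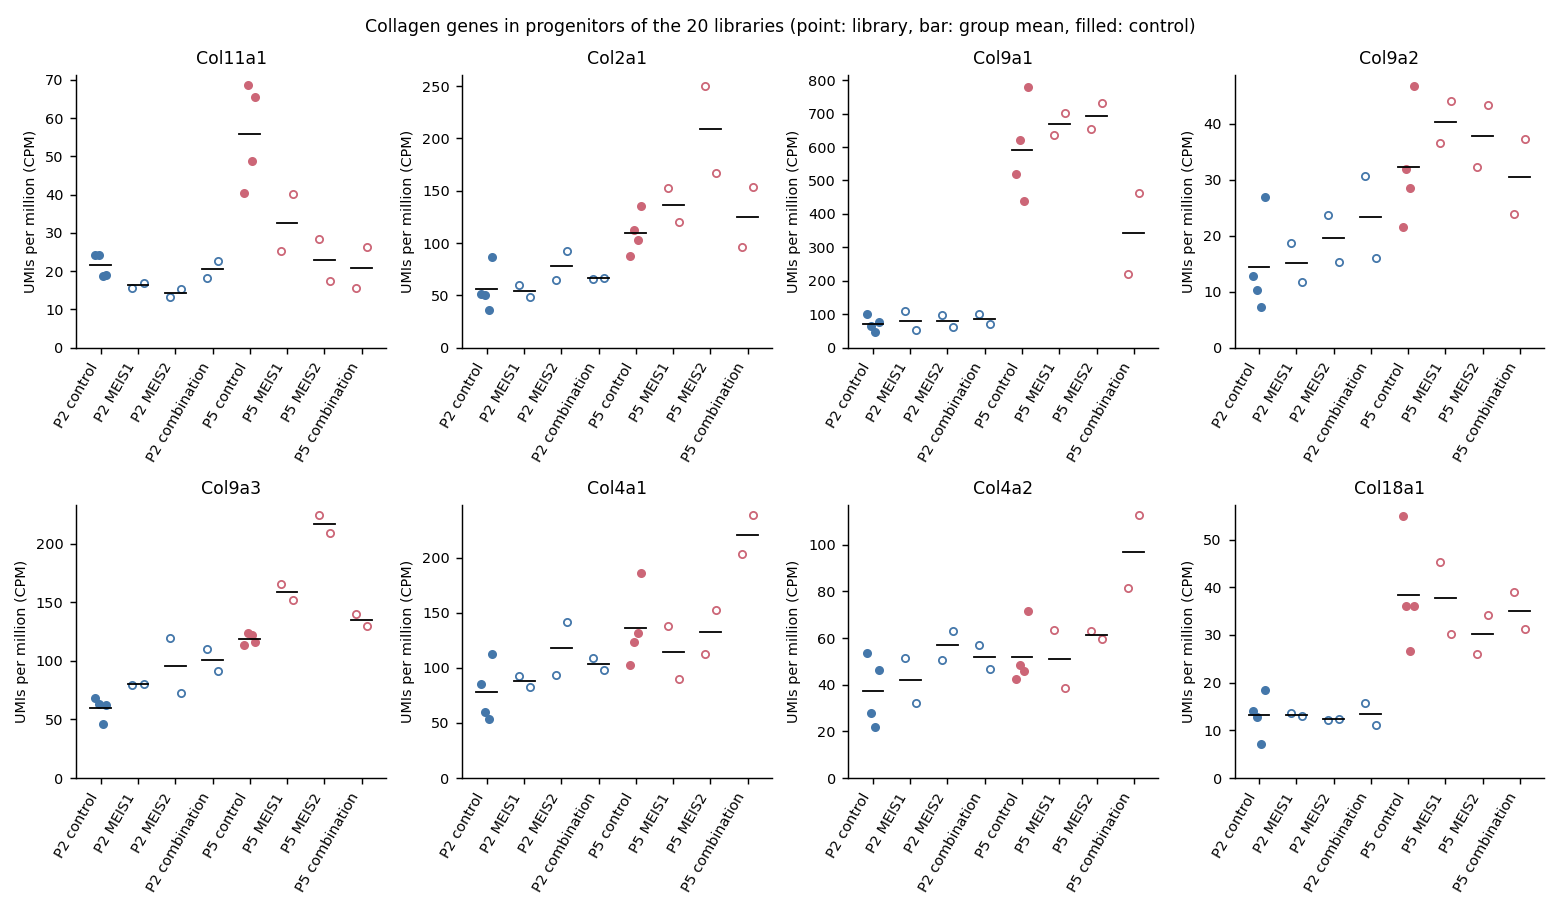
CPM of the 8 collagen genes in progenitors of the 20 libraries, by age and construct. Points are libraries, filled for controls, and bars are group means. The P5 controls lie above the P2 controls in every panel except for overlaps in Col9a2, Col4a1 and Col4a2. For Col11a1 the 6 MEIS libraries at P5 lie below the 4 controls.

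In neurogenic cells 7 of the 8 genes rose from P2 to P5, where 6.67% of 13745 genes were called higher and 9.27% in either direction. Col9a1 was 5.15, 4.77, 4.40 and 8.34 CPM in the P2 controls and 36.7, 125, 68.1 and 114 in the P5 controls, a log2 fold change of 3.83 (SE 0.55, adjusted p = 0.000175). Col18a1 was 2.04, 2.38, 0 and 2.64 CPM at P2 and 10.4, 24.3, 11.6 and 12.2 at P5, which gives a log2 fold change of 2.91 (SE 0.48, adjusted p = 0.00059). The groups were apart for both genes, as for 10% of genes with the P5 controls higher. Col4a1 and Col4a2 rose together here, by 1.53 (SE 0.20, adjusted p = 7.32e-05) and 1.40 (SE 0.23, adjusted p = 0.00059) on the log2 scale. Col2a1 rose by 1.81 (SE 0.40, adjusted p = 0.00564), Col9a2 by 1.37 (SE 0.37, adjusted p = 0.0221) and Col9a3 by 0.72 (SE 0.16, adjusted p = 0.00778). Col11a1 did not pass, with 8.03, 11.5, 8.39 and 3.51 CPM at P2 and 5.43, 30.4, 18.2 and 21.0 at P5, which gives a log2 fold change of 1.22 (SE 0.47, adjusted p = 0.12). P5 control 1 lay among the P2 libraries, and without it the adjusted p was 0.0285. The call of Col9a2 was lost without P2 control 1, 2 or 3 or P5 control 2 or 4 (adjusted p 0.0551 to 0.0721) and with groups taken from the barcode prefix (0.0601).

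The neurogenic class itself differed between the ages by its markers. Its summed progenitor markers were 307 to 428 CPM in P2 controls and 871 to 1709 in P5 controls, and its summed Müller glia markers 404 to 614 and 2612 to 4419. More cells close to progenitors in the class and more collagen RNA per cell cannot be told apart in these sums. Leaving out every cell with at least 2 UMIs of markers of endothelium, pericytes, fibroblasts, astrocytes, pigment epithelium, lens or microglia kept the calls of Col4a1, Col4a2 and Col18a1, and Col9a1 then had a log2 fold change of 0.50 (adjusted p = 0.633). Col11a1, Col2a1 and Col9a2 changed sign with that filter, to -0.18, -0.34 and -0.57 (adjusted p = 0.92, 0.827 and 0.65), and Col9a3 was at 0.21 (adjusted p = 0.702). That filter took 17430 cells, where 12393 cells had at least 2 UMIs of Kdr alone, and it took 9530 of the 11818 progenitors, for which it allowed no test of age. With Kdr kept out of the lists and only endothelial and pericyte genes counted, an alternative chosen after the data were seen that took 2843 cells, all 7 calls held and Col9a1 was 3.59 higher on the log2 scale (adjusted p = 0.000176).

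In rods and amacrine cells none of the 8 collagens passed the test of age. Rods had 7 of the 8 genes tested, 0 called and 2 (Col9a3 and Col4a2) with an unadjusted p under 0.05 by edgeR, against 13.2% of 14786 genes called. Col9a3 in rods came closest, from 4.80 ± 2.05 CPM at P2 to 1.96 ± 1.05 at P5 (n = 4 each, log2 fold change -1.35, SE 0.46, adjusted p = 0.0604), and DESeq2 called it (adjusted p = 0.0299), as did edgeR without P2 control 1 or P5 control 3 (0.049 and 0.0281). In amacrine cells Col11a1 was 27.9, 41.0, 24.5 and 7.91 CPM in P2 controls and 24.1, 56.2, 8.09 and 30.2 in P5 controls. These values overlap, with 1 P5 control above every P2 control, and the log2 fold change was 0.14 (SE 0.44, adjusted p = 0.952). None of the 6 genes tested there had an unadjusted p under 0.05 by edgeR or DESeq2, and 0.397% of 13097 genes were called, 52 genes, against 88 with the replicate block.

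Some genes that make or hold collagen, or that act as receptors for matrix proteins, were called higher in control progenitors at P5. More members of the 6 lists were not called than were. Over all genes 10.6% were called higher and 17.5% in either direction. Of 24 tested genes that modify, fold or cut collagen, 11 were called higher, 1 lower and 12 not called, with a median log2 fold change of 0.64. Among them Plod2, a lysyl hydroxylase of collagen, was 38.7 ± 3.21 CPM at P2 and 99.2 ± 22.7 at P5, which gives a log2 fold change of 1.36 (SE 0.19, adjusted p = 0.000165). P3h2, a prolyl hydroxylase of basement membrane collagens, rose by 2.68 (SE 0.44), Plod1 by 1.15 (SE 0.20) and Pcolce2, an enhancer of procollagen cleavage, by 4.08 (SE 0.84). Loxl2, a cross-linking oxidase, fell by 1.62 on the log2 scale (SE 0.54, adjusted p = 0.0473).

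Of 17 other collagens tested, 3 were called higher and 0 lower, with a median of 0.60. They were the basement membrane chain Col4a5 (28.4 ± 5.56 to 61.5 ± 13.8 CPM), the transmembrane collagen Col23a1 (341 ± 134 to 746 ± 80.7 CPM) and Col27a1, a fibrillar collagen (0.538 ± 0.406 to 4.09 ± 1.29 CPM). Among 15 basement membrane partners 5 were called higher and 1 lower, and among 12 receptors for collagen and other matrix proteins 5 and 0. Sparc, a collagen-binding matrix protein, went from 499 ± 247 to 1784 ± 248 CPM (log2 fold change 1.88, SE 0.32, adjusted p = 0.000794), and Lama5 and Nid1, parts of basement membranes, rose by 2.86 (SE 0.42) and 3.21 (SE 0.58). Lamb3 was the gene called lower, at 3.50 ± 3.25 CPM and then 0.301 ± 0.304. The matrix receptors Dag1, Itgav, Itga2 and Itgb5 rose by 1.20, 1.73, 1.39 and 0.96 on the log2 scale. Not all of these are known as receptors of collagen. Of 15 genes of the vitreous and the matrix between photoreceptors 3 were called higher, Hapln3, Bcan and Fbn1, and of 7 Sox and cartilage-type regulators 2, Sox6 and Sox8. The medians of these last 4 lists were 0.52, 0.77, 0.69 and 0.27, against -0.04 over all genes. In rods, where 13.2% of genes were called, 0 of 14 basement membrane partners were called higher with age and 5 lower, with a median log2 fold change of -1.27. Among them Agrn, a heparan sulfate proteoglycan, went from 34.0 ± 9.08 CPM at P2 to 13.8 ± 2.69 at P5, which gives a log2 fold change of -1.38 (SE 0.28, adjusted p = 0.00416), and Hspg2, which encodes perlecan, from 3.61 ± 1.20 to 0.718 ± 0.376 (-2.38, SE 0.41, adjusted p = 0.00128). The other lists in rods were mixed. Of 13 genes of the vitreous and photoreceptor matrix 2 were called higher, Impg1 and Impg2, proteoglycans of the matrix around photoreceptors, by 3.92 (SE 0.59) and 1.46 (SE 0.28) on the log2 scale, and 1 lower, Matn4, with a median of 0.06. Collagen making had 1 higher (Adamts3) and 3 lower (Serpinh1, Plod3 and Ppib) of 23, with a median of 0.01, receptors 1 higher (Itga3) and 2 lower (Ddr1 and Itga11) of 10, with -0.14, other collagens 0 and 1 (Col5a2) of 17, with 0.35, and the regulators 0 of 7, with -0.75. In neurogenic cells 6.67% of 13745 genes were called higher and 9.27% in either direction. The 6 lists had 1 to 4 genes called higher each, from 1 of 14 vitreous and matrix genes to 3 of 7 regulators. Among those called were Col23a1, P3h2, Sparc and Sox6. Lamb3 was the 1 gene called lower, and the medians ran from -0.03 to 0.67. In amacrine cells, where 0.397% of 13097 genes were called, 2 of 20 collagen making genes, P3h2 and Colgalt2, were called higher. No other gene of the lists was called there, and the medians ran from 0.05 to 0.83. In the tests of the constructs at P2 no gene of these lists was called in progenitors, where 0.00673% to 0.0404% of all genes were called. The lists were written with earlier results of these data known.

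With the MEIS constructs at P5, Col11a1 in progenitors lay below the controls in every library. It was 40.4, 68.6, 48.8 and 65.5 CPM in the controls, 25.3 and 40.1 with MEIS1, 28.4 and 17.3 with MEIS2 and 15.6 and 26.2 with the combination. The highest MEIS library and the lowest control differed by less than 1 CPM. The means were 55.8 ± 13.5 CPM (SD, n = 4) and 25.5 ± 8.78 (n = 6), a log2 fold change of -1.20 (SE 0.19). These values chose the gene and are given without a test. Over all 14849 genes 0.0202% were called in that contrast and 0.168% had all 6 MEIS libraries below all 4 controls, and nothing about Col11a1 is read from these shares. GFP, carried by all constructs, was 11440 to 46150 CPM in the control progenitors and 3794 to 11466 in those with MEIS, and its part in the difference was not tested. Within cluster 3 the means were 59.6 ± 13.1 CPM in controls, 33.5 ± 10.9 with MEIS1, 23.8 ± 8.47 with MEIS2 and 22.7 ± 6.84 with the combination. The groups overlapped there, since MEIS1 replicate 2 was at 41.2 CPM and P5 control 1 at 41.0. Without cells carrying markers of other cell types, 20 or more progenitors were left at P5 only in control 3, at 17.6 CPM from 9 UMIs, and in combination replicate 1, at 3.28 CPM from 2 UMIs, so that the pattern could not be described there.

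The other collagens did not share that pattern at P5, by their values. Col9a1 was 635 and 701 CPM with MEIS1 and 653 and 732 with MEIS2, inside the control range of 440 to 780, and 220 and 463 with the combination. Col2a1 was 153 and 120 CPM with MEIS1, 250 and 167 with MEIS2 and 96.5 and 153 with the combination, against 87.2 to 135 in controls (log2 fold change 0.45, SE 0.21). Col9a3 lay above all controls in the 6 MEIS libraries, at 166, 152, 224, 209, 140 and 130 CPM against 114 to 124 (log2 fold change 0.47, SE 0.15), as did 0.189% of genes. Col4a1 and Col4a2 were highest with the combination, at 203 and 239 CPM and at 81.6 and 113 CPM, against 102 to 186 and 42.5 to 71.7 in controls. Col9a2 and Col18a1 had log2 fold changes of 0.17 (SE 0.31) and -0.19 (SE 0.25). As in the choice of Col11a1, no test is given for these.

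**Figure D3:**
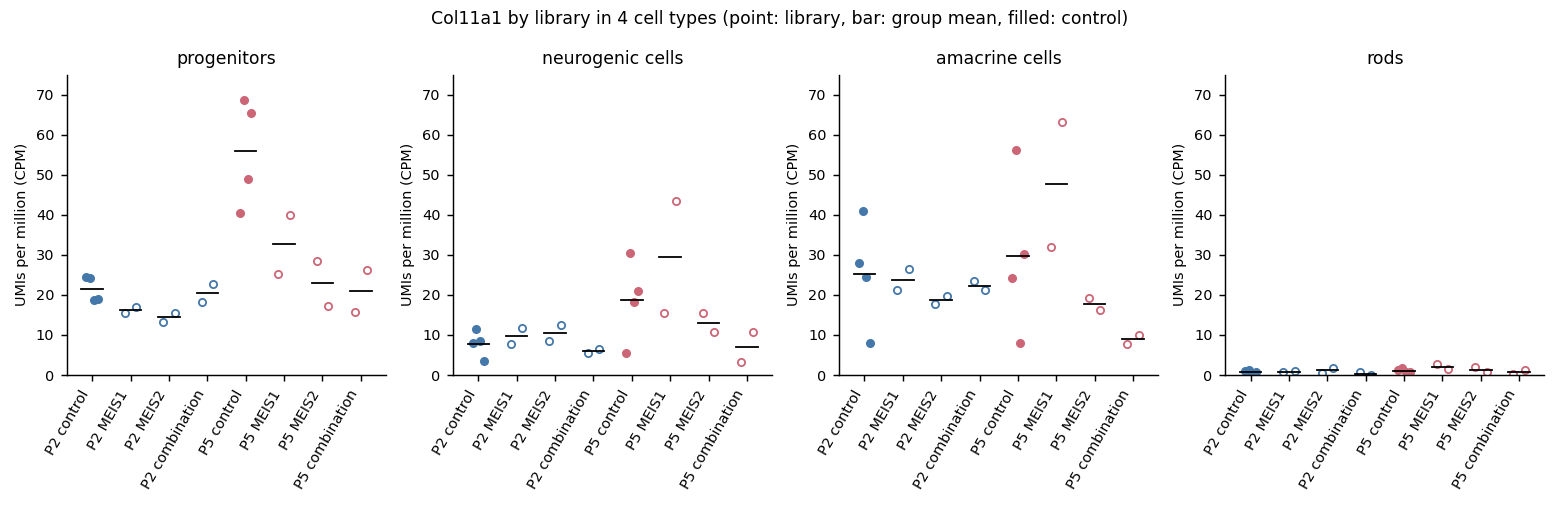
Col11a1 CPM by library in progenitors, neurogenic cells, amacrine cells and rods, on 1 scale. Points are libraries, filled for controls, blue for P2 and red for P5, and bars are group means. The 6 MEIS libraries at P5 lie at 15.6 to 40.1 CPM in progenitors, below the controls, and overlap with the controls in the other 3 types.

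At P2 none of the 8 collagens passed the test against control in progenitors. Col11a1 was 15.6 and 17.0 CPM with MEIS1, 13.3 and 15.4 with MEIS2 and 18.3 and 22.7 with the combination, against 24.3, 24.2, 18.6 and 18.9 in controls. In 5 of the 6 MEIS libraries the level lay below all controls, and the log2 fold change was -0.54 (SE 0.20, unadjusted p = 0.0146, adjusted p = 0.474). By construct it was -0.52 (SE 0.27, adjusted p = 1) with MEIS1, -0.87 (SE 0.30, adjusted p = 0.184) with MEIS2, where 0.0404% of genes were called against 0.00673% with MEIS1, and -0.24 (SE 0.27, adjusted p = 0.999) with the combination. Col9a3 was above all controls in the 6 MEIS libraries, at 79.7, 80.2, 119, 72.3, 110 and 91.7 CPM against 46.4 to 68.2, as were 0.727% of genes (log2 fold change 0.44, SE 0.15, adjusted p = 0.474). The other 6 genes had log2 fold changes from -0.19 for Col18a1 to 0.25 for Col9a2. In that contrast 0.0135% of 14849 genes were called, Meis1 and Meis2, and 1357 had an unadjusted p under 0.05. Of the 8 collagens edgeR and DESeq2 called 0, with Col11a1 and Col9a3 under an unadjusted 0.05 by edgeR.

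In neurogenic cells, amacrine cells and rods at both ages, and in bipolar cells at P5, none of the 8 collagens was called with the constructs. The remaining types, and bipolar cells at P2, were not tested. In amacrine cells at P2, Col4a1 was 38.3 and 47.5 CPM with MEIS1, 41.7 and 26.8 with MEIS2 and 44.7 and 33.6 with the combination, against 22.9, 18.2, 24.0 and 24.96 in controls. All 6 MEIS libraries lay above all controls, as for 0.702% of genes, with a log2 fold change of 0.71 (SE 0.31, unadjusted p = 0.0334, adjusted p = 0.988). Col4a2 was 32.5, 35.1, 38.1, 15.5, 35.9 and 28.8 CPM in the same libraries, against 16.4 to 17.8 in controls, so that 5 of 6 lay above (log2 fold change 0.81, SE 0.28, unadjusted p = 0.0104, adjusted p = 0.988). 0% of 13097 genes were called there, 543 had an unadjusted p under 0.05, and DESeq2 called none of the 6 collagens tested. The order was not particular to amacrine cells. In neurogenic cells at P2 all 6 MEIS libraries lay above all controls for Col4a1 (means 33.3 against 26.4 CPM) and Col4a2 (23.1 against 15.0), as for 1.1% of genes. In rods at P2 6 did so for Col4a2 (5.37 against 2.87 CPM) and 4 for Col4a1, and in progenitors 2 and 1. For rods the share of all genes in that order was not counted, and no collagen passed there by edgeR (lowest adjusted p = 0.400).

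At P5, amacrine Col4a1 had a log2 fold change of 0.80 (SE 0.33, unadjusted p = 0.0263) and Col4a2 of 0.32 (SE 0.30). Neither was called in amacrine cells, where 0% of 13097 genes were called. Col9a2 there had a log2 fold change of -1.02 (SE 0.83, adjusted p = 1), from 0 to 8 UMIs in each library with a construct and 0 to 28 in each control. Col11a1 in amacrine cells was 24.1, 56.2, 8.09 and 30.2 CPM in the P5 controls and 32.0, 63.3, 19.2, 16.2, 7.84 and 10.0 with the constructs. These overlap, with a log2 fold change of -0.55 (SE 0.42, adjusted p = 1). In neurogenic cells at P5 it was 5.43, 30.4, 18.2 and 21.0 CPM in controls and 15.4, 43.4, 15.5, 10.7, 3.30 and 10.7 with the constructs, a log2 fold change of -0.45 (SE 0.40, adjusted p = 1). Whether the difference of Col11a1 in progenitors exceeds those in the other types was not tested. Of the 8 collagens in neurogenic cells, edgeR and DESeq2 called 0 at P2 and 0 at P5, none had an unadjusted p under 0.05 by either tool, and 0% and 0.00728% of 13745 genes were called. In rods 0 of 7 were called at both ages, as were 0% of 14786 genes, and only Col4a2 at P2 had an unadjusted p under 0.05 (0.0287). In bipolar cells at P5 0 of 6 were called, where 0.00678% of genes were called. Their log2 fold changes ran from -0.38 to 1.02, and Col9a3 had an unadjusted p under 0.05 by DESeq2 but not by edgeR.

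**Figure D4:**
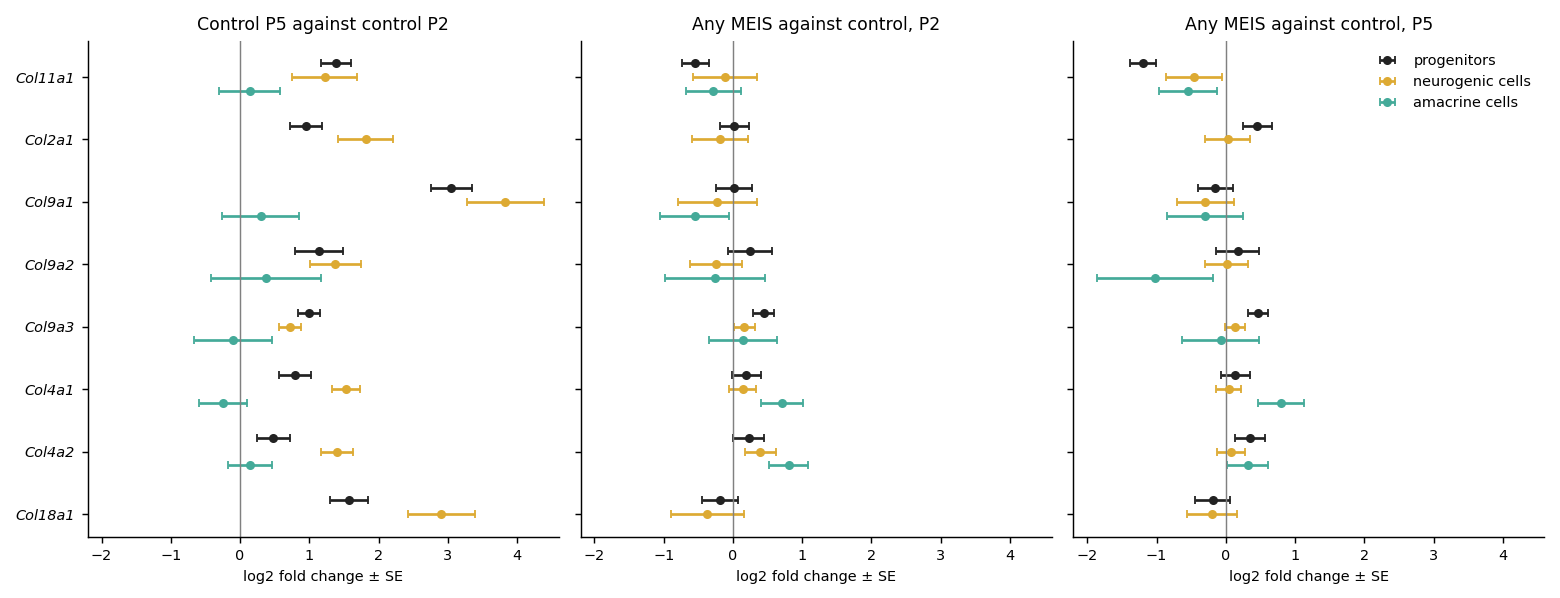
Log2 fold changes of the 8 genes, with bars of 1 SE, for age in controls (left) and for the constructs, averaged over the 3 kinds, against controls of the same age (P2 middle, P5 right), in progenitors (black), neurogenic cells (yellow) and amacrine cells (green). Genes that did not pass the count filter in a type have no point. The age values of progenitors and neurogenic cells lie to the right of 0 for all 8 genes. Those of the constructs lie on both sides of 0, the lowest being Col11a1 in P5 progenitors at -1.20 and Col9a2 in P5 amacrine cells at -1.02, and the highest Col4a2 in P2 amacrine cells at 0.81 and Col4a1 in P5 amacrine cells at 0.80.

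The genes most like Col11a1 were not the other collagens. Over the means of 8 cell types in controls, with log2(CPM + 1) and 11895 genes of at least 10 CPM in some type, the highest Pearson correlations were those of Fhl1 (0.976), 1810055G02Rik (0.970), Gjc1 (0.963), Abat (0.958) and Fgf13 (0.951). Fhl1 was 85.6 CPM in progenitors, 51.8 in amacrine cells and 10.5 in rods, and Abat 77.6, 104 and 4.04. Of the collagens Col4a2 ranked 233 (0.804) and Col18a1 2063 (0.492). Within progenitors over the 20 libraries, among 6886 genes of at least 20 CPM on average, they were Hmgn3 (0.837), Acbd3 (0.822), Tmem106b (0.811), Slc44a5 (0.806) and Acadsb (0.806). Col9a1 ranked 129 there (0.669), Col18a1 453 (0.563) and Col4a2 2649 (0.0335). The points share libraries, depth and age, and they include the P5 progenitor values that chose Col11a1. These correlations describe these data only.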

How the data were processed

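Single-cell RNA of sorted GFP-positive retinal explant cells was read in 20 libraries. Per the submitters' processing notes, the authors used Cell Ranger, Seurat 5 and mm10, and the labels' design text adds a GFP locus to the genome. The authors deposited UMI counts per gene and cell with their cell types and clusters, and each of the 79009 cells' counts summed to the deposited total. Their mitochondrial percent per cell was deposited too and is not used here. Doublets were not called here.

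Counts were summed per library and cell type (at least 20 cells) and scaled to CPM. Tests were edgeR 4.0.16 quasi-likelihood fits (R 4.3.3, TMM, filterByExpr, 1 mean for each of 8 groups), with Benjamini-Hochberg adjustment over all genes tested, called at adjusted p under 0.05, in 15 comparisons. Intervals and floors cover counting error only. In progenitors the deviations of same-numbered control libraries from their group means correlated at 0.125 to 0.282 across the ages, over 0.1 in 4 of 4 pairs. The labels state no pairing, and differently numbered pairs are not given as a reference, so these values do not show that the controls are paired. The main tests took the libraries as unpaired, and a block for the replicate number was run as an alternative. The barcode prefixes number the controls in another way. The construct groups, with 2 libraries each, have too few pairs for this check. Alternatives were DESeq2 1.42.0, no TMM, no filter, 50 cells, only the groups compared, a replicate block, barcode-start groups, cells of other types left out, and each library left out. The collagens and all gene lists were chosen with earlier results of these data known. Named genes were the 8 collagens, the 5 most like Col11a1 by each measure, and of each list the called genes, up to 4 in each direction by p. GENCODE vM21 and RefSeq GRCm38.p6 gave positions.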

Additional observations from a re-analysis of the deposited data

Results flagged for a closer look

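In 72 groups of 4 to 10 libraries, 4 held a library that stood apart from the rest, where chance gives about 1 in 20. Col18a1 in neurogenic cells was 24.3 CPM in P5 control 2, against 10.4, 11.6 and 12.2 in the other P5 controls. Col2a1 in amacrine cells was 2.93 CPM in P5 control 4, against 0.487, 0.809 and 0.878, values that rest on 3 UMIs against 2, 1 and 1. In amacrine cells of P2 control 2, Col9a2 was 4.47 CPM against 1.83, 1.83 and 1.95 in the other P2 controls, from 12 UMIs, and Col9a3 was 11.2 CPM against 6.69, 6.70 and 7.35.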

How the results depend on the processing

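Of 1911 values of single genes under an alternative, 1886 kept their side of the threshold, 18 lost the call, 5 gained it, and 2 of called genes reversed. Among the 1886, 162 values of genes called in neither fit changed sign. The main fits called 6 collagens in progenitors and 7 in neurogenic cells, all with age, and none in any other comparison. The lost and reversed calls fell on these, so the total of 1911 does not measure how stable they were. Without cells carrying markers of other cell types, 3 of the 8 collagens were called with age in neurogenic cells. The log2 fold changes there were -0.34 for Col2a1, -0.57 for Col9a2 and -0.18 for Col11a1 (1.22 with all cells). Among P5 controls only control 3 kept enough progenitors. Its Col11a1 was then 17.6 CPM from 9 UMIs, against 48.8 in all its progenitors, and the cells left had 7525 UMIs per cell against 11739. That setting gave no test of age or of the constructs at P5 in progenitors. In rods 1 collagen was called with age by DESeq2 and with groups from the barcode start, and 0 to 1 when each library was left out. With the replicate block, 6 and 7 collagens were called with age in progenitors and neurogenic cells, and no call of a collagen changed. That block was fitted over all 20 libraries, those with constructs included, and no paired fit of the controls alone was run. In the same setting Col11a1 at P5 was -1.26 with MEIS in progenitors.

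Counts over all genes depended more on the setting. With age they were 2602 in progenitors (1573 to 3214 with a library left out, 1734 to 3408 otherwise), 1274 in neurogenic cells (856 to 1540, 750 to 1893), 1949 in rods (1124 to 2315, 1449 to 2771) and 52 in amacrine cells (8 to 155, 7 to 192). Leaving out a construct library left 1 library in its group, and counts from such fits are not given. With any MEIS construct at P2 they were 2 in progenitors (0 to 414 in settings that left out no library). They were 0 in neurogenic cells (0 to 1053 in such settings) and 0 in rods (0 to 285), the highest with groups from the barcode start. With MEIS2 at P2 the count was 6 in progenitors (0 to 562 in such settings). At P5 with any construct it was 3 in progenitors (2 to 5 with a control left out, 0 to 5 otherwise) and 1 in bipolar cells (0 to 13 in such settings). The cause was not tested. The 10 Col11a1 UMIs of the shallowest library limit its value.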
